A study of Homo sapiens with 4 samples.

Results

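The genes described here are the MHC class II genes HLA-DPA1, HLA-DPB1, HLA-DRA, HLA-DMA, HLA-DMB, HLA-DOA, HLA-DOB and HLA-DQA1, the class II chaperone gene CD74, and CIITA, the regulator of class II transcription. On the array they are read by 26 probe sets, all those whose platform annotation names at least 1 of these 10 genes, out of 54675 probe sets and 19775 named genes. Of the 26, 25 name 1 gene and 1 is shared by HLA-DQA1 and HLA-DQA2. The set was chosen by the RMA and MAS5 differences of these arrays, in which HLA-DPA1 and HLA-DPB1 stood out, so all differences between the populations below are a description, with no test.

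The samples were PLC8024 cells, an established human hepatocellular carcinoma line, separated on a flow cytometer into CD133+ cells and CD133- cells. CD133 is a membrane glycoprotein by which tumour-initiating cells are often enriched. No treatment is given for either population. Each population was deposited once as RMA values, on a log2 scale, and once as MAS5 values, on a linear intensity scale, which makes 4 samples but 1 value per population and processing. No difference therefore carries an error between cultures or sorts, and the number of arrays limits its precision. In a sorted population, fewer cells that express a gene and less RNA per cell cannot be told apart.

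Class II molecules are pairs of an alpha and a beta chain that display peptides from endosomes to CD4+ T cells. HLA-DR, HLA-DQ and HLA-DP are the peptide-presenting pairs. CD74, the invariant chain, occupies the groove of new pairs and guides them to endosomes, HLA-DM exchanges its remnant for peptide, and HLA-DO restrains HLA-DM. B cells, dendritic cells and macrophages make these proteins constantly, and many other cells do so after interferon-gamma. CIITA binds no DNA itself and joins the factors RFX, CREB and NF-Y that sit on the X and Y boxes of class II promoters.

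The promoters of HLA-DPA1, HLA-DPB1 and HLA-DMB, the genes with the clearest differences, are shown with those of HLA-DMA and HLA-DQA1. HLA-DMA differed by less than 2-fold, and the signal of HLA-DQA1 was low in both populations. They are shown together because these genes are known to share the X and Y boxes. The sequences are RefSeq's on build GRCh38.p14 and are the 250 bases upstream of an annotated start. RefSeq windows were matched for 8 of the 10 genes, and HLA-DRA and CIITA had no match. Capitals mark the letters of an X box core, AGNNACNGA, and of a Y box core, ATTGG, on either strand, so that a Y box on the other strand reads CCAAT. HLA-DPA1 has 2 annotated starts, and the window with an X box core match is the one printed. It is chr6:33073650-33073899 on the minus strand, and HLA-DPB1 lies at chr6:33075740-33075989 on the plus strand, so that these genes point away from each other. HLA-DMB is chr6:32941029-32941278 and HLA-DMA chr6:32953098-32953347, both on the minus strand, and HLA-DQA1 is chr6:32637156-32637405 on the plus strand.
HLA-DPA1: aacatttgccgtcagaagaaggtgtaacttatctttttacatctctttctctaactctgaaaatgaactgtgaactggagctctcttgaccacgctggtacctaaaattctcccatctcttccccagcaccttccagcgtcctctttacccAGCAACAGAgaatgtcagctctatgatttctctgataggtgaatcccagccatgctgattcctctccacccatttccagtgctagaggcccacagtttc
HLA-DPB1: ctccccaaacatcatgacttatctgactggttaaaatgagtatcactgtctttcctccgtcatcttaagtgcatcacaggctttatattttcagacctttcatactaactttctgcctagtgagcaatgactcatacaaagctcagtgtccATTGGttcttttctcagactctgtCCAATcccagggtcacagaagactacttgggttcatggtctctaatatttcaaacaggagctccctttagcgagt
HLA-DMB: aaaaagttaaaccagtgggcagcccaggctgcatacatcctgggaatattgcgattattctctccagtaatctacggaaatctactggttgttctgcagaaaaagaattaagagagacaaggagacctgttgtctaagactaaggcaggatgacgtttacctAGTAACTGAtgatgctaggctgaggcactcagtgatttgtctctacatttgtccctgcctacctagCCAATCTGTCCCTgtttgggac
HLA-DMA: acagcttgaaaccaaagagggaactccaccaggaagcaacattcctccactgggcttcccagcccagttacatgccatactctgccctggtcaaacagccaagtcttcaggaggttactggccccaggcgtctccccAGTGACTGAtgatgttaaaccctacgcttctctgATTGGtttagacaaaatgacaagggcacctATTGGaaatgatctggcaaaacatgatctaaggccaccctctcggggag
HLA-DQA1: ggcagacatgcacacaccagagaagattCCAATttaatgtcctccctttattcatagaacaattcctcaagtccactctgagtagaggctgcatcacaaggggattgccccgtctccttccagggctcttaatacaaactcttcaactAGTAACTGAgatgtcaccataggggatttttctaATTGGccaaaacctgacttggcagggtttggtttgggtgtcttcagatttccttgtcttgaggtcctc

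The X box core was found in 5 of the 9 member windows, against 12.3% of all 35116 RefSeq windows of that length, and the Y box core in 7 of 9, against 32.0%. In HLA-DQA1, HLA-DMA and HLA-DOA the Y box core began 34 bases after the start of the X box core on the gene's strand. This spacing, read off these windows, occurred in 5 of the 35116 windows. The printed HLA-DPA1 window held an X box core and no Y box core, and that of HLA-DPB1 held Y box cores on both strands and no X box core. In HLA-DMB, an X box core match on the other strand overlaps the Y box core by 1 base. HLA-DOB and CD74 held a Y box core only, and the window of the other HLA-DPA1 start held neither. A match is a description of these letters, and none of the windows was measured here.

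The floor was the median of a population's RMA values over all probe sets, 5.16 in CD133+ and 5.14 in CD133-, and a probe set passed it if its higher RMA value did. A passing probe set was counted as higher or lower if RMA and MAS5 both showed a change of 2-fold or more to the same side. Of the 26 member probe sets, 12 passed the floor, with 5 counted as higher in CD133+ and 0 as lower. Over the array this rule counted 1.74% of the 28435 passing probe sets as higher and 1.09% as lower. With each gene read from its single-gene probe set of greatest mean RMA value, 7 of the 10 genes passed the floor, with 3 counted as higher and 0 as lower. Of the 13116 genes above the floor on the array, 2.25% were higher and 1.09% lower. The median RMA difference over the 26 probe sets, CD133+ minus CD133-, was 0.31, against 0.00 over all probe sets, and 20 of the 26 lay above 0. Because the genes were chosen with these differences known, nothing is read from that contrast. PROM1, the gene of CD133, had RMA values of 10.35 in CD133+, against 6.04 in CD133-, in the direction of the sort labels.

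**Figure D1:**
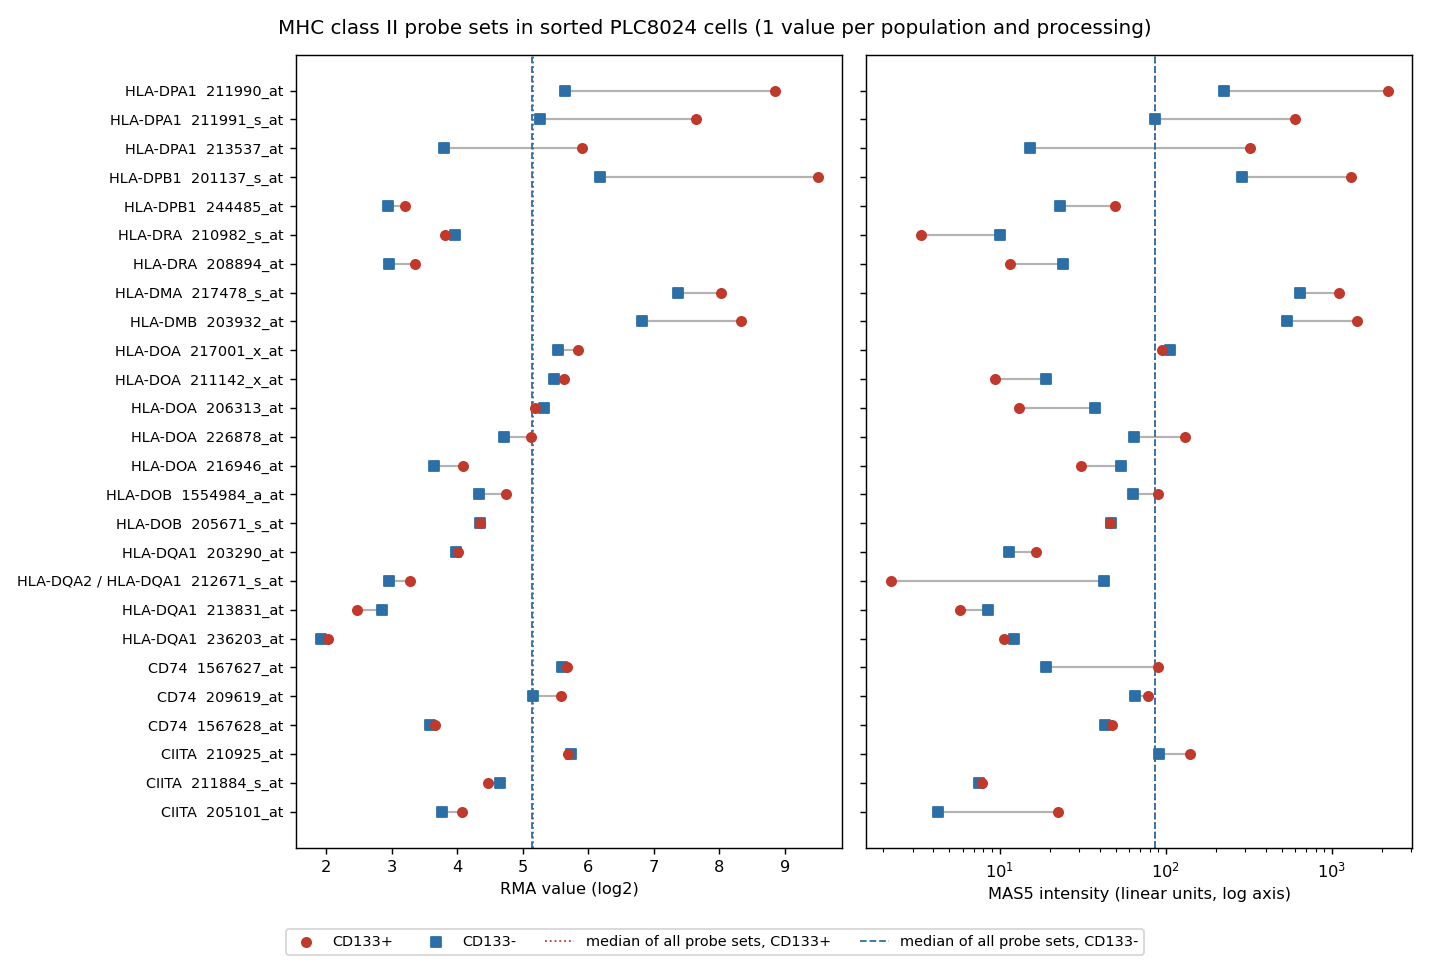
Values of the 26 member probe sets, RMA on a log2 axis (left) and MAS5 intensity on a log axis (right), with CD133+ as circles and CD133- as squares, and vertical lines at the medians of all probe sets. HLA-DPA1, the upper HLA-DPB1 probe set and HLA-DMB show the wide gaps, and the HLA-DRA and HLA-DQA1 probe sets lie left of the medians in both populations.

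Of the presenting pairs, HLA-DP was the one whose chains were counted, and both were higher in CD133+. HLA-DPA1, the alpha chain, had RMA values of 8.85 in CD133+, against 5.65 in CD133- in its representing probe set, 211990_at, which is 9.22-fold. Its MAS5 intensities were 2163 in CD133+, against 224 in CD133-, which is 9.64-fold. The gene's RMA difference of 3.20 ranked 12 among the 13116 genes above the floor. The other HLA-DPA1 probe sets went the same way. Probe set 211991_s_at had RMA values of 7.64 in CD133+, against 5.26 in CD133-, and MAS5 intensities of 601 and 86.4 in the same populations. Probe set 213537_at had RMA values of 5.90 in CD133+, against 3.81 in CD133-. Its CD133- value was under the floor, so the log2 differences of 2.09 in RMA and 4.39 in MAS5 are given and no fold. All 3 HLA-DPA1 probe sets were thus counted as higher, with RMA differences that span 2.09 to 3.20.

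HLA-DPB1, the beta chain, had RMA values of 9.50 in CD133+, against 6.18 in CD133- in probe set 201137_s_at, a difference of 3.32 that ranked 10 among the genes above the floor. Its MAS5 intensities were 1301 in CD133+, against 289.5 in CD133-, a log2 ratio of 2.17 or 4.49-fold, so MAS5 put this difference 2-fold or more below RMA. The other HLA-DPB1 probe set, 244485_at, was below the floor in both populations, with RMA values of 3.20 in CD133+, against 2.95 in CD133-. The HLA-DPB1 difference therefore rests on 1 probe set, whose suffix _s_at marks probes that can match several transcripts. The HLA-DP pseudogenes next to these genes had probe sets of their own, both below the floor. HLA-DPA2 had RMA values of 4.38 in CD133+, against 4.42 in CD133-, and HLA-DPB2 had 3.29 in CD133+, against 2.43 in CD133-.

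The HLA-DM chains were above the floor in both populations and lay to the same side by smaller amounts. HLA-DMB, the beta chain of the peptide exchanger, had RMA values of 8.33 in CD133+, against 6.82 in CD133-, which is 2.84-fold. Its MAS5 intensities were 1419 in CD133+, against 540 in CD133-, which is 2.63-fold, and its RMA difference ranked 153 among the genes above the floor. HLA-DMA, the alpha chain, had RMA values of 8.03 in CD133+, against 7.37 in CD133-, a difference of 0.66, and MAS5 intensities of 1103 in CD133+, against 642 in CD133-. HLA-DMA missed the 2-fold rule in both processings, with an RMA fold of 1.58 and a MAS5 fold of 1.72, and its rank was 637. Each chain of HLA-DM had 1 probe set on the array, so no second probe set bears on these values.

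For scale, 6170 genes of the array had a second probe set above the floor, and the RMA differences of the highest 2 probe sets of a gene had an SD of 0.35 around each other. The absolute gap had a 95th percentile of 0.70 in RMA and 1.64 in MAS5. These gaps describe how far probe sets of a gene differ within these arrays. They leave out any variation between sorts, cultures and arrays, and since the members were chosen by their differences, no member is judged against them.

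**Figure D2:**
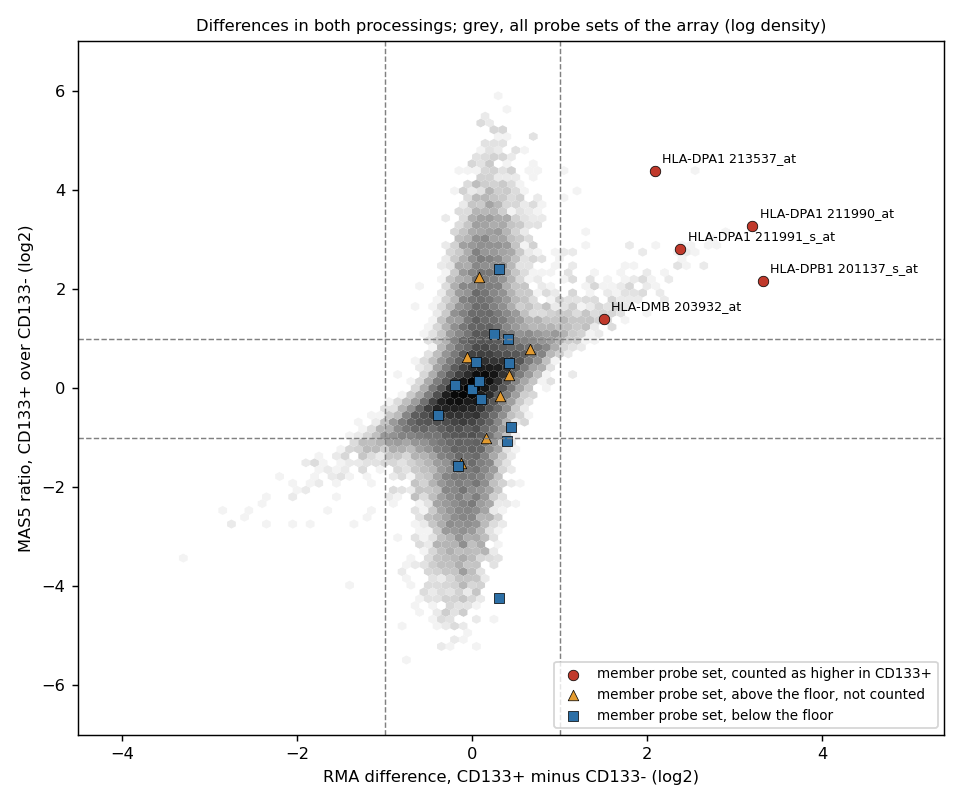
RMA difference against MAS5 log2 ratio, both CD133+ over CD133-, for the member probe sets (coloured) and all probe sets of the array (grey, log density), with dashed lines at 2-fold. The 5 counted member probe sets lie in the upper right, and the other 21 lie between -0.39 and 0.66 on the RMA axis while they spread from -4.25 to 2.40 on the MAS5 axis.

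The alpha chains of HLA-DR and HLA-DQ, the other presenting pairs, gave low signals in both populations. None of the 6 probe sets that name HLA-DRA or HLA-DQA1 was above the floor, and their RMA values, both populations together, ran from 1.92 to 4.02. Their MAS5 intensities ran from 2.23 to 16.6 in CD133+ and from 8.53 to 42.2 in CD133-, while the column medians were 86.0 in CD133+ and 86.1 in CD133-. HLA-DRA, the nearly invariable alpha chain of HLA-DR, had RMA values of 3.81 in CD133+, against 3.97 in CD133- in probe set 210982_s_at. Its other probe set, 208894_at, had 3.36 in CD133+, against 2.96 in CD133-. HLA-DQA1, the alpha chain of HLA-DQ, had RMA values of 4.02 in CD133+, against 3.98 in CD133- in its representing probe set, 203290_at. The probe set that HLA-DQA1 shares with HLA-DQA2, 212671_s_at, differed in sign between the processings, with 0.31 in RMA and -4.25 in MAS5, from MAS5 intensities of 2.23 in CD133+, against 42.2 in CD133-. A value below the floor says that these probes gave a low signal and does not show that the transcript is absent. No fold is given for these genes.

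The beta chains that pair with these genes, and the class II pseudogenes, are no members, and 21 further probe sets name them, 5 of them shared between genes. Of the 21, 6 were above the floor and 0 were counted, and their RMA differences ran from -0.32 to 0.86 with a median of 0.15. Their MAS5 log2 ratios spread from -2.63 to 3.33. Probe set 204670_x_at, shared by HLA-DRB1 and HLA-DRB4 and above the floor, had MAS5 intensities of 166 in CD133+, against 24.4 in CD133-, a log2 ratio of 2.77 beside an RMA difference of 0.12. HLA-DRB1, the main beta chain of HLA-DR, had RMA values of 5.87 in CD133+, against 5.68 in CD133-, and HLA-DQB1, that of HLA-DQ, had 6.14 in CD133+, against 5.77 in CD133-. Both were read from _x_at probe sets, which can take up signal from related transcripts.

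HLA-DO, the brake on HLA-DM, was close to or under the floor. The HLA-DOA probe sets, 5 in number, had RMA differences from -0.13 to 0.44, and 0 were counted. CD133+ was higher than CD133- in 4 of the 5 in RMA and lower in 4 of the 5 in MAS5. Its representing probe set, 217001_x_at, had RMA values of 5.85 in CD133+, against 5.54 in CD133-, and MAS5 intensities of 95.3 in CD133+, against 107 in CD133-. The processings thus disagreed on the side to which HLA-DOA leaned. HLA-DOB, the beta chain, was below the floor in both probe sets, with RMA values of 4.74 in CD133+, against 4.33 in CD133- in 1554984_a_at, and 4.35 in each population in 205671_s_at.

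CD74, which every new class II pair binds in professional presenting cells, had no probe set that differed 2-fold in RMA. Its representing probe set, 1567627_at, had RMA values of 5.68 in CD133+, against 5.60 in CD133-, but MAS5 intensities of 89.6 in CD133+, against 19.0 in CD133-. The MAS5 log2 ratio of 2.24 stood beside an RMA difference of 0.08. Probe set 209619_at had RMA values of 5.59 in CD133+, against 5.16 in CD133- and MAS5 intensities of 78.7 in CD133+, against 65.3 in CD133-. Probe set 1567628_at was below the floor, with RMA values of 3.66 in CD133+, against 3.58 in CD133-. In all 3 probe sets the CD133+ value was the higher one in both processings, by RMA differences of 0.08 to 0.43.

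CIITA, which sets the level of class II transcription in most cells, likewise had no probe set that differed 2-fold in RMA. Its representing probe set, 210925_at, had RMA values of 5.69 in CD133+, against 5.74 in CD133-, and MAS5 intensities of 139.7 in CD133+, against 90.9 in CD133-. The other CIITA probe sets were below the floor. Probe set 211884_s_at had RMA values of 4.46 in CD133+, against 4.66 in CD133-, and 205101_at had 4.07 in CD133+, against 3.76 in CD133-. The MAS5 log2 ratio of 205101_at was 2.40, from intensities of 22.6 in CD133+, against 4.29 in CD133-. Over all 26240 probe sets below the floor, the central 95% of MAS5 log2 ratios ran from -3.23 to 3.36, and that of RMA differences from -0.50 to 0.54, and the differences of 205101_at lay inside both ranges.

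The members on chromosome 6 lie among other genes of the class II region, which were read in the RefSeq gene order. The 23 genes with a probe set, from 2 before HLA-DRA to 2 after HLA-DPB1, include 8 members and 15 others. Of the 15, 7 passed the floor, with 2 counted as higher and 0 as lower, against 2.25% and 1.09% of all genes above it. Those 2 were PSMB8 and PSMB9, which are among the inducible subunits of the immunoproteasome, which cuts peptides for MHC class I. PSMB8 had RMA values of 7.56 in CD133+, against 5.24 in CD133-, and PSMB9 had 8.03 in CD133+, against 6.01 in CD133-. Of the genes next to a member, TAP2, a subunit of the peptide transporter, had an RMA difference of 0.48, and BRD2, a chromatin reader between HLA-DMA and HLA-DOA, had one of -0.36. HLA-DRB6, HLA-DQB2, BTNL2, a butyrophilin-like gene, and LOC100294145 were below the floor. The counted genes of the 23, members included, were thus HLA-DPA1, HLA-DPB1, HLA-DMB, PSMB8 and PSMB9. The position of these genes was not tested, and nothing is read from their number.

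**Figure D3:**
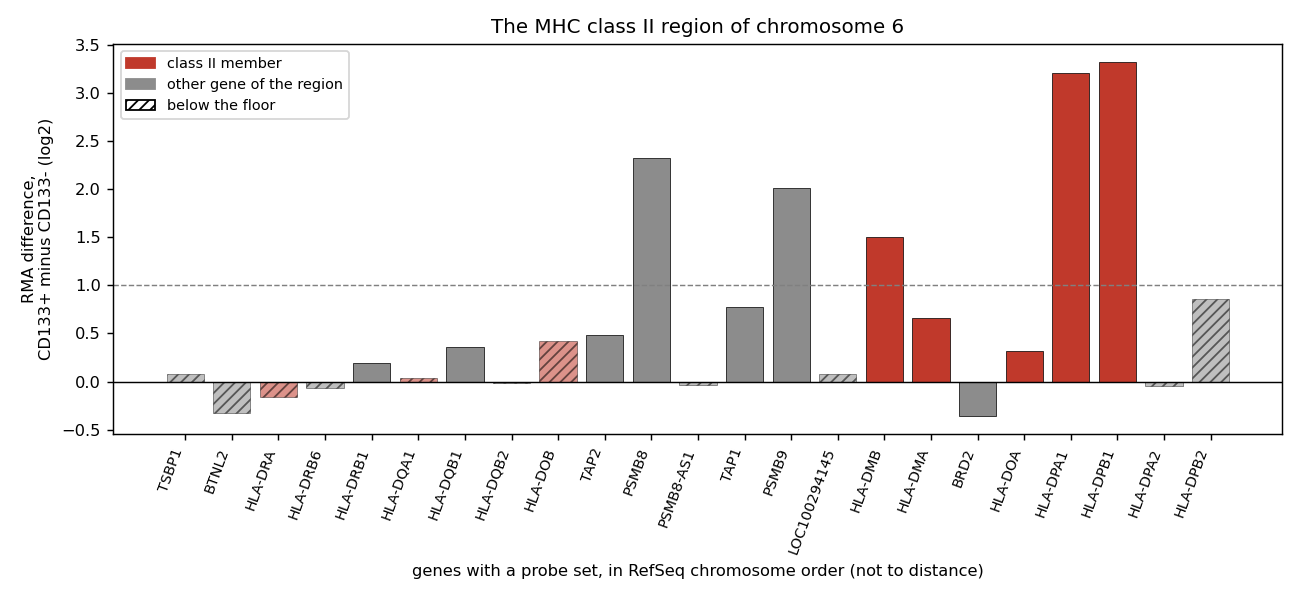
RMA difference, CD133+ minus CD133-, of the 23 genes with a probe set in the class II region, in chromosome order and not to distance. Class II members are red, other genes are grey, hatched bars are below the floor, and the dashed line is 2-fold. HLA-DPA1 and HLA-DPB1 reach 3.20 and 3.32, and PSMB8 and PSMB9 reach 2.32 and 2.01.

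Apart from RFXAP, the RFX, NF-Y and CREB genes measured were above the floor in both populations and differed by less than 2-fold. Of the list of class II beta chains and transcription factors, 12 of 16 genes had a single-gene probe set, 10 were above the floor and 0 were counted, with a median RMA difference of -0.07. RFX5, the DNA-binding subunit of RFX, had RMA values of 8.38 in CD133+, against 8.48 in CD133-, and RFXANK, another subunit, had 9.58 in CD133+, against 9.68 in CD133-. RFXAP, the remaining subunit, had 5.31 in CD133+, against 4.71 in CD133-, the CD133- value being under the floor, and differences of 0.60 in RMA and 1.37 in MAS5. NFYA, a subunit of NF-Y, had an RMA difference of -0.14.

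Interferon-gamma signalling and the known controls of CIITA gave 0 counted genes among 16 above the floor, with a median RMA difference of 0.03. IFNGR2, a chain of the interferon-gamma receptor, had RMA values of 9.69 in CD133+, against 8.91 in CD133-, and IFNGR1, the other chain, had 9.24 in CD133+, against 9.52 in CD133-. IRF1, an interferon-induced activator of CIITA, had 6.90 in CD133+, against 6.85 in CD133-. SOCS3, a feedback inhibitor of cytokine receptors, and EP300, an acetyltransferase, had RMA differences of -0.23 and 0.22.

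Genes of endosomal antigen processing gave 1 counted gene of 14 above the floor, with a median RMA difference of 0.06. AP1S1, a subunit of the adaptor that sorts cargo between the Golgi and endosomes, was 2.20-fold higher in CD133+. CTSS, the cathepsin that trims CD74, had RMA values of 7.56 in CD133+, against 6.97 in CD133-, a difference of 0.59 in RMA and 1.19 in MAS5. LGMN, which also cuts in endosomes, had an RMA difference of 0.59, and CTSB, a broad cathepsin, had one of -0.64. MHC class I presentation genes gave 2 counted of 17 above the floor, PSMB8 and PSMB9, with 13 of 17 above 0 and a median of 0.29. PSMB10, the other inducible subunit of the immunoproteasome, had RMA values of 8.03 in CD133+, against 8.15 in CD133-. TAP1, the partner of TAP2, had RMA values of 7.89 in CD133+, against 7.12 in CD133-, and NLRC5, the class I counterpart of CIITA, was below the floor. Among co-stimulatory and co-inhibitory ligands 1 of 11 above the floor was counted. It was CD70, a ligand that T cells read through CD27, at 2.07-fold higher in CD133+, while TNFSF9 and ICAM1 had RMA differences of -0.53 and -0.51 and CD276 one of 0.29. Over all 13116 genes above the floor, the median RMA difference was 0.00, with 2.25% counted as higher and 1.09% as lower. The list counts here and those of transcription factors and interferon-gamma signalling stand beside these shares. Since the lists were chosen with earlier results of these data known, nothing is read from their counts.

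**Figure D4:**
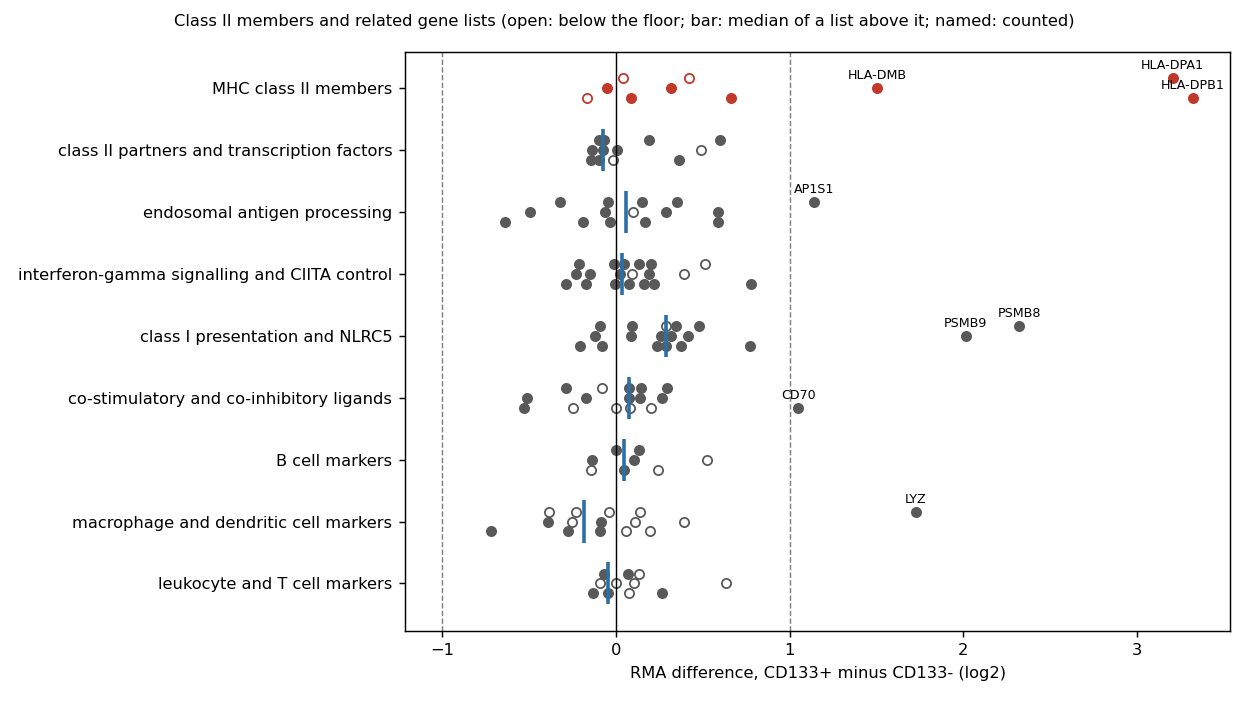
RMA difference, CD133+ minus CD133-, of the class II members and of each gene of 8 related lists. Open circles are below the floor, bars mark each list's median above the floor, and names mark counted genes. The class II members reach 3.32, and the counted genes of the 8 lists drawn are AP1S1, PSMB8, PSMB9, CD70 and LYZ, all higher in CD133+. The lists of endothelial, of fibroblast and stellate, and of hepatocellular carcinoma line markers are not drawn. They hold the list genes counted as lower, PECAM1, ALB, AFP, APOA1 and GPC3.

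Markers of other cells that a sorted sample could hold were read in the same way, beginning with cells that make class II constantly. Of 8 B cell markers with a probe set, 5 were above the floor in each population and 0 were counted. The summed MAS5 intensity of the 8, those below the floor included, was 789 in CD133+, against 500.4 in CD133-. The widest gap in that sum was that of CD79A, with MAS5 intensities of 337.5 in CD133+, against 131.9 in CD133-. MS4A1, the gene of CD20, had RMA values of 3.79 in CD133+, against 3.26 in CD133-, below the floor, and CD79A, a subunit of the B cell receptor, had 6.48 in CD133+, against 6.35 in CD133-. PAX5, a B cell transcription factor, BLK, a kinase, and CD22, a surface lectin, were also above the floor, with RMA differences of -0.14, 0.10 and 0.04, and IGHM, an immunoglobulin heavy chain gene, had 6.39 in each population. Of 15 macrophage and dendritic cell markers, 5 were above the floor in CD133+ and 6 in CD133-, with summed MAS5 intensities of 10913 in CD133+, against 4920.4 in CD133-. That sum was mostly LYZ, the gene of lysozyme, the 1 counted marker, with MAS5 intensities of 10257 in CD133+, against 4008 in CD133-. CD163, a macrophage scavenger receptor, had RMA values of 5.01 in CD133+, against 5.73 in CD133-. FCER1G, a signalling chain of Fc receptors, had RMA values of 5.63 in CD133+, against 6.02 in CD133-, and CD1C, which presents lipids on dendritic cells, had 5.89 in CD133+, against 6.17 in CD133-. CD14 and SPI1, which define monocytes and macrophages, were below the floor in both populations. Of 11 leukocyte and T cell markers, 5 were above the floor in each population and 0 were counted, with summed MAS5 intensities of 3111 in CD133+, against 3134 in CD133-. PTPRC, the gene of the leukocyte antigen CD45, had RMA values of 3.01 in CD133+, against 2.94 in CD133-, below the floor. Those above it were LCP1 and CORO1A, which bind actin in leukocytes, the T cell receptor subunit genes CD3D and CD3E, and CD4. LCP1 had the highest signal of them, with RMA values of 9.62 in CD133+, against 9.69 in CD133-, and CORO1A had 6.23 in CD133+, against 6.28 in CD133-. CD4, CD3D and CD3E had RMA differences of 0.27, -0.13 and 0.07. Any part of LYZ-expressing cells in the HLA-DP difference was not tested.

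The remaining lists hold markers of the line itself, of endothelial cells and of fibroblasts and stellate cells. Of the 13116 genes above the floor on the array, 2.25% were counted as higher and 1.09% as lower. The counts of all marker lists stand beside these shares. These lists too were chosen with earlier results of these data known, so nothing is read from their counts. Of 11 markers of hepatocellular carcinoma lines, 10 were above the floor in each population and 4 were counted as lower in CD133+. These were the liver secretory genes ALB, AFP and APOA1 and the surface proteoglycan gene GPC3. The other markers of this list above the floor were not counted and went to both sides. TTR, FOXA2 and SERPINA1 had RMA differences of 0.28, 0.28 and 0.06. APOB, KRT8 and KRT18 had RMA differences of -0.23, -0.28 and -0.33. The MAS5 intensities of TTR were 82.1 in CD133+, against 20.5 in CD133-. Of 8 endothelial markers 2 were above the floor, and PECAM1, an adhesion molecule also found on leukocytes, was 3.38-fold lower in CD133+. The other was ROBO4, an endothelial guidance receptor, with an RMA difference of -0.10. The summed MAS5 intensity of the endothelial list was 344 in CD133+, against 1060 in CD133-. Of 9 fibroblast and stellate cell markers 5 passed the floor, 4 of them reaching it in CD133+ and 4 in CD133-, and 0 were counted. ACTA2 reached it in CD133+ alone and RGS5 in CD133- alone. The summed MAS5 intensity of the 9 was 1101 in CD133+, against 629.9 in CD133-. COL1A1, a collagen gene, had RMA values of 8.27 in CD133+, against 8.08 in CD133-. THY1, DCN, ACTA2 and RGS5 had RMA differences of 0.18, 0.09, 0.26 and -0.37. LUM, the proteoglycan lumican, was below the floor, with RMA values of 4.54 in CD133+, against 2.01 in CD133-. Their part in the class II differences was not tested.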

How the data were processed

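Expression was measured on oligonucleotide arrays in CD133+ and CD133- cells sorted from PLC8024, with 1 array value per population and processing. The authors deposited MAS5 intensity values and RMA log2 values. Per the submitters' processing notes the software was GCOS with MAS5 or RMA, with versions not given in the sources used here. The notes do not say which arrays were normalized together, or whether both processings of a population start from 1 array, so they were never used as replicates. No detection calls were used.

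Names came from GEO's platform annotation, brought up to date by gene ID through a RefSeq table of assembly GRCh38.p14. Of 54675 probe sets, 41097 had 1 gene, 1801 several and 11777 none. Differences were RMA CD133+ minus CD133- and the log2 of MAS5 CD133+ over CD133-, computed with Python 3.11.15 and pandas 2.3.3. Probe sets are given without coordinates, the array's build being unknown here. The counting rule was tested on simulated data. No statistical test was run, since genes and probe sets are not replicates.

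The members, lists, floor and counting rule were chosen with earlier results of these data known. Named genes are the members, PROM1, per list up to 4 genes past the floor, taken by the size of the RMA difference, counted list genes, genes next to a member, and the 5 genes nearest to HLA-DPA1. Genes named beyond these are RFX5, RFXANK, IRF1, NLRC5, MS4A1, IGHM, CD14, SPI1, PTPRC, CORO1A, PSMB10, LUM and HLA-DPB2. TTR, FOXA2, SERPINA1, APOB, KRT8, KRT18 and DCN are named as well, and all of these were chosen after their values were seen. Alternatives changed the processing, the pseudocount, the floor, the fold and the choice of probe sets.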

Additional observations from a re-analysis of the deposited data

How the results depend on the processing

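No paired analysis was possible because each population had 1 value per processing and the labels number no replicates. For the same reason no replicate could be left out. The count of 5 member probe sets higher in CD133+ ran from 3 to 6 over the alternatives, and the count of 3 genes from 2 to 4. Without _x_at and _s_at probe sets, 3 probe sets were higher, because 211991_s_at of HLA-DPA1 and 201137_s_at of HLA-DPB1 are left out. HLA-DPB1 was then represented by 244485_at, with an RMA difference of 0.25 below the floor, and HLA-DMA had no value. With MAS5 alone, 2 probe sets were lower, against 0 in the main setting. Both belong to HLA-DOA, 206313_at at -1.51 and 211142_x_at at -1.01, beside RMA differences of -0.13 and 0.16. With MAS5 alone CD74 was also among the higher genes. In every other alternative run the count of lower probe sets and of lower genes was 0. Of 49 values of single genes under an alternative, 33 moved by less than 0.35 and 16 by more. The 0.35 is the SD of RMA differences between probe sets of a gene, while some of the values are MAS5 ratios. Where an alternative kept the same probe set, as for HLA-DMB with its 1 probe set, the RMA difference could not move. Nothing is therefore read from these 2 counts. None of the 3 counted genes changed sign. HLA-DPB1 had a median RMA difference of 1.79 over its probe sets, and HLA-DPA1 one of 2.38. Dim probe sets limit what MAS5 shows for HLA-DRA, HLA-DQA1, CD74 and CIITA.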

Other observations

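The genes whose RMA values in the populations lay nearest to those of HLA-DPA1, by Euclidean distance over these 2 values, were TIMP1, KLHDC9, SERPINB9, TDRD12 and TUBB2B. TIMP1, an inhibitor of matrix metalloproteinases, had RMA values of 8.74 in CD133+, against 5.81 in CD133-, at a distance of 0.20. SERPINB9, an inhibitor of the cytotoxic protease granzyme B, had 8.83 in CD133+, against 5.37 in CD133-. TUBB2B, a beta-tubulin, had 8.85 in CD133+, against 6.12 in CD133-. With 2 populations, likeness means only a like signal in each of them.

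An RMA value equal in CD133+ and CD133- in every deposited digit, of which there were up to 6 significant ones, was held by 3211 probe sets, 5.87% of the array, and by 1 of the 26 member probe sets, 205671_s_at of HLA-DOB. Its MAS5 intensities were 46.1 in CD133+, against 46.8 in CD133-.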
